A study of Mus musculus with 6 samples.

Results

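The genes described here are 36 genes of fatty acid transport, storage and oxidation in mouse quadriceps muscle. They were chosen by symbol from a list of the enzymes, carriers, coat proteins and receptors of the pathway, and all 36 were found among the 33641 gene symbols of the expression table, where they are represented by 196 of its 105129 transcripts. RNA was sequenced from 3 libraries of male mice homozygous for the rs6190 allele (labelled rs6190 allele +/+) and from 3 libraries of males with the reference allele on both chromosomes (labelled ref allele +/+, here WT). All were littermates born to heterozygous parents, were 4 months old (about 16 weeks) and had their muscle frozen at about ZT4, that is 4 hours after lights on. The allele copies a variant of the glucocorticoid receptor gene, Nr3c1, and the comparison asks how transcript abundance in muscle differs between the genotypes. No drug treatment is named in the labels, and they do not say that each library came from a separate mouse, so the p-values below measure only the spread between libraries.

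Muscle takes up long-chain fatty acids with the help of transport proteins, ties them to coenzyme A and either stores them as triglyceride in lipid droplets or burns them in mitochondria. For burning, the acyl group is moved across the inner mitochondrial membrane on carnitine, and the matrix enzymes of beta-oxidation then shorten it step by step, passing electrons through the electron transfer flavoprotein to the respiratory chain. Malonyl-CoA, made by acetyl-CoA carboxylase beta, blocks the entry step, and the PPAR receptors are transcription factors that bind fatty acids and switch on many genes of the pathway. Slow, oxidative fibres are known for a higher content of these enzymes than fast, glycolytic fibres.

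Abundance is given as TPM (transcripts per 1000000 transcripts), summed over the transcripts of a gene. Differences are homozygous minus WT on the log2(TPM + 1) scale, which understates the change of weakly expressed genes. TPM carries no sequencing depth, so the depth behind each value is unknown here. The median difference over the 11099 genes tested was 0.26, so a value near 0.26 is the typical difference between these groups of libraries. Nr3c1 itself was 20.01, 19.7 and 19.5 TPM in homozygous replicates 1, 2 and 3 and 11.5, 14.8 and 8.07 TPM in WT replicates 1, 2 and 3, which does not show which allele was transcribed.

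The libraries differed in make-up within each group. Fast-fibre markers (12 genes such as Myh4 and Tnnt3) summed to 96660 to 131400 TPM in the homozygous libraries and to 116300 to 231900 TPM in the WT libraries, with the highest sum in WT replicate 3, and slow-fibre markers (11 genes such as Myh7 and Tnnt1) to 1902 to 9714 and 245 to 1738 TPM, with 0 of either list at 0. These sums are dominated by their most abundant genes: 10 of the 12 fast-fibre genes had a lower homozygous mean, while Myh1 and Myh2, fast myosin genes picked out after their values had been seen, had separated groups with homozygous values higher (differences 1.77 and 1.37, adjusted p 0.168 each in limma). The slow-fibre sum was highest in homozygous replicate 2, at 9714 TPM, and lowest in WT replicate 3, at 245 TPM. All homozygous sums lay above all WT sums. A slow-fibre score used as a covariate below therefore runs partly with genotype, and with 6 libraries such a fit cannot tell the 2 apart. Markers of adipocytes summed to 11.2 to 31.0 TPM in the homozygous and 17.3 to 21.3 TPM in the WT libraries, with 1 of 8 genes (Ucp1) at 0 throughout, and endothelial markers to 45.1 to 52.7 and 34.1 to 49.0 TPM. WT replicate 3 also had low values for long transcripts: the median deviation from the mean of the 6 libraries was -0.45 on the log2 scale for genes over 4000 nt and 0.059 for genes under 1000 nt. In bulk muscle, fewer cells of a type and less RNA per cell cannot be told apart, and the part of these differences in the results below was not tested beyond the values printed beside them.

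Most of the 36 genes were somewhat higher in homozygous muscle, about as far as genes in general were. All 36 passed the filter of 1 TPM in at least 3 libraries, 31 had a higher and 5 a lower value in the homozygous group, and their median difference was 0.27, against 0.26 for all genes. By limma with Benjamini-Hochberg adjustment over all genes, 0 of the 36 had an adjusted p under 0.05, against 0.0% of all genes, and the smallest adjusted p among them was 0.168, for Ppara. At an unadjusted p under 0.05, 7 genes were higher (Ppara, Dgat2, Echs1, Eci2, Pnpla2, Acadvl and Acacb), or 19.4% of the 36 against 23.7% of all genes, and 0 were lower, against 0.55%. The 3 homozygous values all lay above the 3 WT values for 4 genes (Ppara, Echs1, Pnpla2 and Acacb), or 11.1% against 34.7% of all genes, and all lay below for 0 genes, against 0.73%. Neither share of higher genes exceeded its background. After quantile normalization, which gives all libraries the same distribution, 23 of the 36 genes had a higher and 13 a lower value in homozygous muscle, and the median difference was 0.015, against -0.0070 for all genes.

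**Figure D1:**
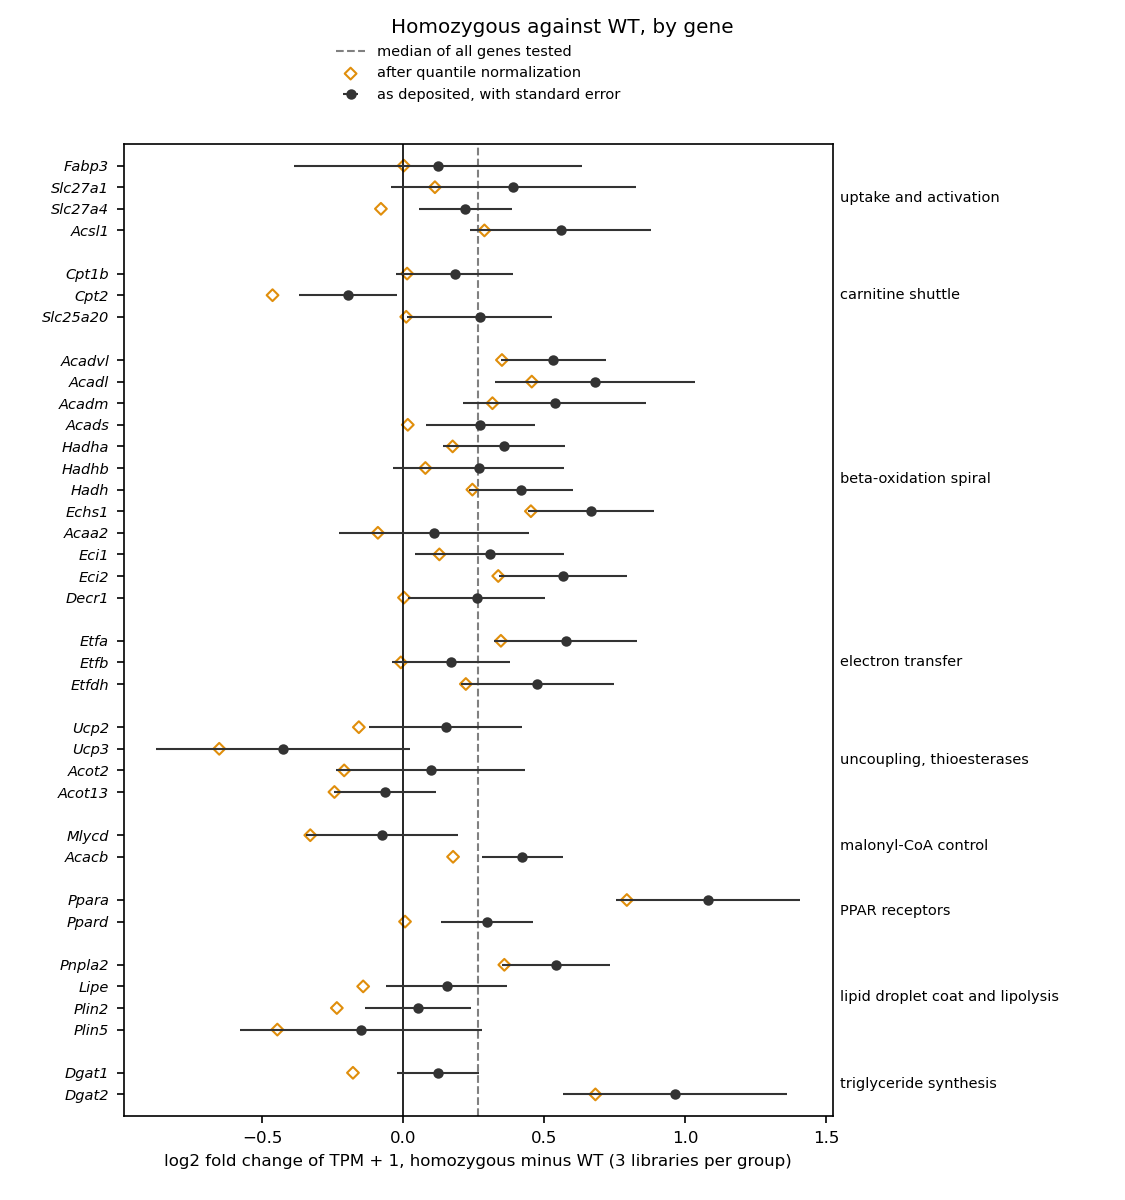
Difference between homozygous and WT muscle for each of the 36 genes, as log2 fold change of TPM + 1 on the x axis with its standard error (black points, 3 libraries per group), and the same after quantile normalization (open diamonds). The dashed line is the median of all genes tested, 0.26; Ppara has the highest value, 1.08, and Ucp3 the lowest, -0.43.

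Uptake and activation were represented by 4 genes. Fabp3, the cytosolic fatty acid binding protein of heart and muscle, was the most abundant of the 36, with a mean of 759 TPM over the 6 libraries. Homozygous muscle had 1233, 635 and 453 TPM and WT muscle 1316, 493 and 423 TPM. Replicate 1 of each genotype was far above the other libraries of its group, the groups overlapped throughout, and the difference was 0.12 (SE 0.51). Reads from Fabp3 share their place in the genome with the opposite-strand genes Zcchc17 and Gm10570, and the sources used here do not give whether strand was used in the quantification.

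Slc27a1, a fatty acid transport protein of the plasma membrane, showed the same order within groups, at 73.2, 41.7 and 32.6 TPM against 61.9, 34.5 and 20.2 TPM. Acsl1, the main long-chain acyl-CoA synthetase of muscle, stood at 89.1, 64.4 and 56.7 TPM in homozygous and 70.1, 51.0 and 27.8 TPM in WT muscle. The difference was 0.56 (SE 0.32) for Acsl1 and 0.39 (SE 0.43) for Slc27a1, and in both genes WT replicate 1 lay among the homozygous values and WT replicate 3 was lowest. Without WT replicate 3 the difference for Slc27a1 was 0.0050. Slc27a4, a further transport protein, ran from 2.28 to 3.68 TPM with overlapping groups. The median difference of the 4 genes was 0.31, or 0.041 above that of all genes, and the smallest adjusted p in limma was 0.291.

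The carnitine shuttle had 2 genes with a higher and 1 with a lower homozygous mean. Cpt1b, the muscle form of the outer-membrane carnitine palmitoyltransferase that controls entry, was 147, 117 and 94.3 TPM in homozygous and 129.9, 88.9 and 95.8 TPM in WT muscle, a difference of 0.18 (SE 0.21). Cpt2, its partner on the matrix side, was 29.4, 23.8 and 19.9 TPM against 31.9, 25.2 and 26.5 TPM, with a difference of -0.20 (SE 0.17). Slc25a20, the carrier that exchanges acylcarnitine for carnitine, was 54.3, 41.6 and 33.5 TPM against 49.8, 32.2 and 26.4 TPM, a difference of 0.27 (SE 0.26). The groups overlapped for all 3 genes and the smallest adjusted p was 0.467 (limma). Relative to all genes Cpt2 was 0.46 below the median. After quantile normalization, Cpt2 alone of the 36 was lower at an unadjusted p under 0.05 (difference -0.46, against 4.34% of all genes lower) and Ppara alone was higher (0.79, against 4.54%).

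The ratio of Cpt1b to Cpt2 within a library was picked out, from ratios of several gene pairs, after its values had been seen. Homozygous muscle had ratios of 5.0, 4.89 and 4.75, all above the WT ratios of 4.07, 3.53 and 3.62 (means 4.88 ± 0.125 and 3.74 ± 0.287, SD, n = 3 each). The ratios of Acacb to Acaca and of Ppard to Ppara also had separated groups, with homozygous values lower, and the other pairs overlapped. The lower Cpt2 sum was not seen in its most abundant transcript, ENSMUST00000030345.14, which was 29.3, 22.0 and 18.4 TPM in homozygous and 28.4, 21.6 and 16.7 TPM in WT muscle, a difference of 0.066 (SE 0.25) with overlapping groups. Taken against that transcript, the Cpt1b ratios were 5.03, 5.31 and 5.12 in homozygous and 4.57, 4.11 and 5.75 in WT muscle, so the groups overlapped. Cpt1b overlaps the same-strand gene Gm44502, so its reads may be split between them.

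The beta-oxidation spiral was represented by 12 matrix enzymes. All 12 had a higher mean in homozygous muscle, with differences from 0.11 to 0.68 and a median of 0.39, or 0.12 above that of all genes, and 10 of the 12 lay above the all-gene median. Without WT replicate 3, the median of the 12 was 0.25, or 0.044 above the median of all genes in that fit. Among the acyl-CoA dehydrogenases, which take the first step for chains of different length, Acadvl (very long chains) was 225, 211 and 178 TPM in homozygous and 180.4, 121 and 127 TPM in WT muscle. Acadl (long chains) was 241, 212 and 161 TPM against 213, 127 and 73.0 TPM. Both had WT replicate 1 inside the homozygous range and the other WT libraries below it. The differences were 0.53 (SE 0.19) for Acadvl, with an adjusted p of 0.171 in limma, and 0.68 (SE 0.36) for Acadl, which was 0.29 without WT replicate 3.

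Acadm, the medium-chain dehydrogenase, was 272, 225 and 167 TPM in homozygous and 222, 164.5 and 90.4 TPM in WT muscle, a difference of 0.54 (SE 0.33). Acads, for short chains, was 52.9, 43.8 and 37.9 TPM against 44.8, 37.9 and 28.8 TPM, a difference of 0.27 (SE 0.19). The groups overlapped for both, and the order of the libraries within each group was the same in the 2 genes, replicate 1 highest and replicate 3 lowest.

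Hadha and Hadhb encode the alpha and beta subunits of the mitochondrial trifunctional protein, which carries out the last steps for long chains. They lie head to head on chromosome 5, with 272 bases between their RefSeq starts (30154980 for Hadha on the minus strand and 30155253 for Hadhb on the plus strand, GRCm38.p6). The stretch between them that no annotated exon covers is shown because both genes are read outward from it; it is chr5:30155163-30155247, given on the plus strand, and holds none of the motifs described further on.
Hadhb and Hadha, shared interval: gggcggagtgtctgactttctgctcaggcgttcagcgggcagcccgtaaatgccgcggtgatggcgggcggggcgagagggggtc

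Hadha stood at 221, 160.3 and 148 TPM in homozygous and 175, 109.6 and 129 TPM in WT muscle, and Hadhb at 327, 249 and 182 TPM against 310.2, 182 and 149 TPM. The differences were 0.36 (SE 0.22) and 0.27 (SE 0.30), with overlapping groups. The ratio of Hadhb to Hadha sums ran from 1.15 in WT replicate 3 to 1.78 in WT replicate 1, and from 1.23 to 1.55 in the homozygous libraries. Protein-coding transcripts made up only 16.8% to 19.4% of Hadha abundance in the 6 libraries. For Hadhb they made up 84.4% to 84.9% in homozygous muscle and 79.6%, 87.4% and 51.4% in WT replicates 1, 2 and 3. The ratio of sums is therefore not a ratio of the protein-coding transcripts of the pair. Hadh, the hydroxyacyl-CoA dehydrogenase for shorter chains, was 136, 123 and 107 TPM against 114, 87.9 and 73.5 TPM, a difference of 0.42 (SE 0.18, adjusted p 0.209 in limma).

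Echs1, the short-chain enoyl-CoA hydratase (chromosome 7, 140105710 to 140116476, minus strand, GRCm38), was the only enzyme of the spiral whose groups did not overlap. Homozygous muscle had 85.0, 110.5 and 93.2 TPM and WT muscle 84.2, 54.9 and 46.5 TPM. Homozygous replicate 1 and WT replicate 1 differed by less than 1 TPM, so the separation rested on a small gap. The difference was 0.67 (SE 0.22), 0.40 more than the all-gene median, with an adjusted p of 0.171 in limma, and it was 0.49 without WT replicate 3. After quantile normalization the difference was 0.45 and the groups overlapped. Echs1 overlaps the opposite-strand gene Paox.

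The remaining enzymes of the spiral followed 2 patterns. Eci2, an enoyl-CoA isomerase, was 69.2, 77.9 and 82.2 TPM in homozygous and 74.5, 44.1 and 40.5 TPM in WT muscle, a difference of 0.57 (SE 0.23). Only WT replicate 1 reached the homozygous range there. Acaa2, the 3-ketoacyl-CoA thiolase, was 165, 96.4 and 66.3 TPM against 132, 77.9 and 81.8 TPM, a difference of 0.11 (SE 0.34), with a homozygous library as both its highest and its lowest value. Eci1, the second isomerase, ran from 113 to 177 TPM and from 85.6 to 163 TPM, and Decr1, the dienoyl-CoA reductase needed for polyunsaturated chains, from 33.7 to 53.1 TPM and from 26.6 to 48.5 TPM. Their differences were 0.31 (SE 0.26) and 0.26 (SE 0.24), near the all-gene median.

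**Figure D2:**
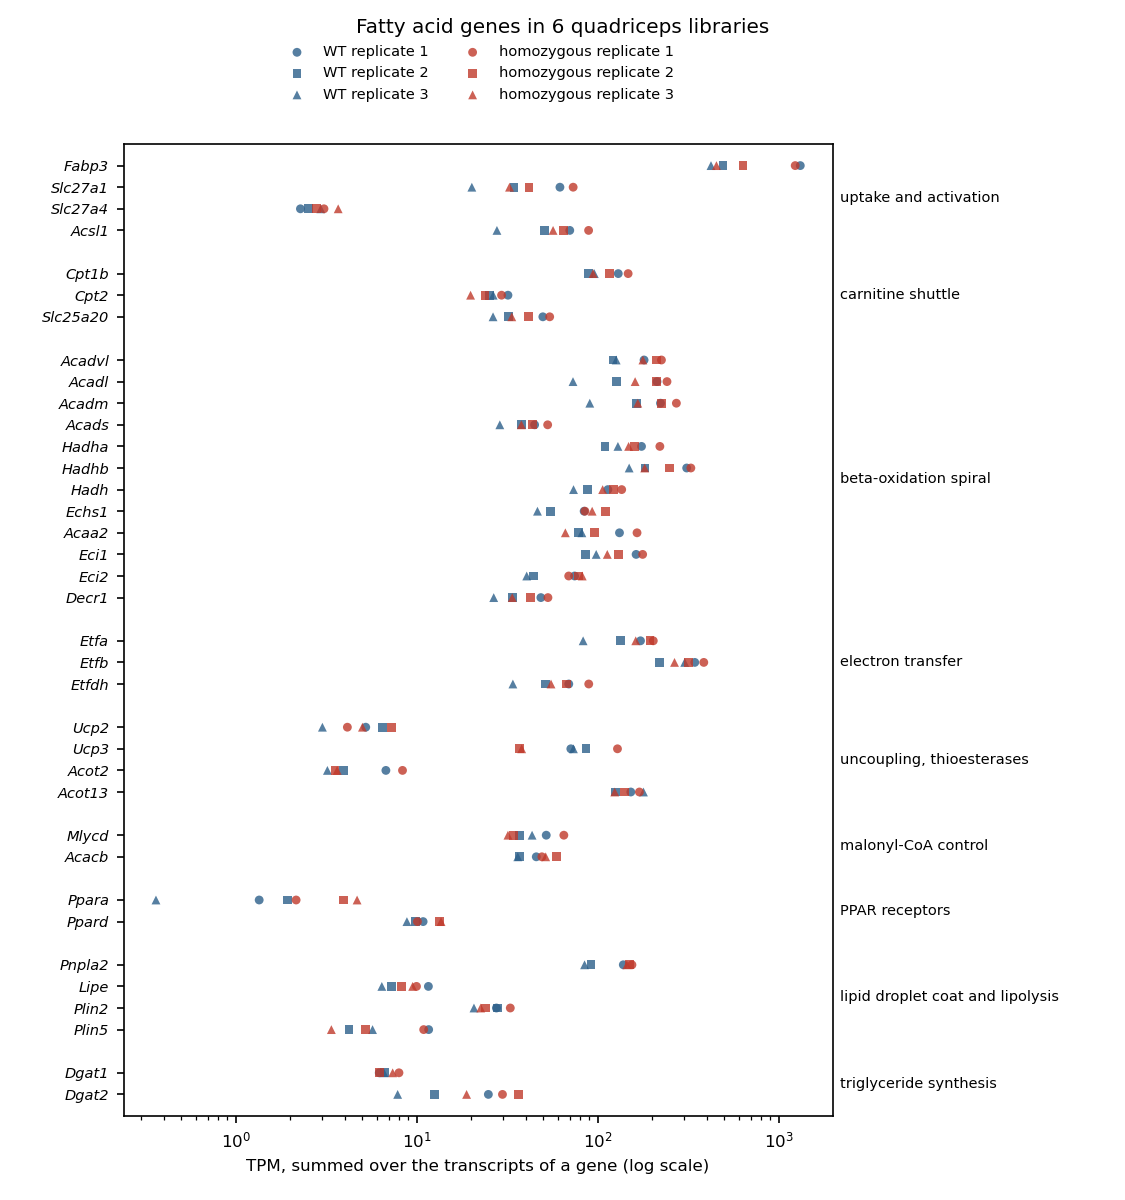
Abundance of each of the 36 genes in each of the 6 libraries, as summed TPM on a log axis, with homozygous libraries in red and WT libraries in blue and a symbol for each replicate number. Genes are grouped by step; circles (replicate 1 of each genotype) lie to the right in most rows of uptake, shuttle and oxidation, and the blue triangle (WT replicate 3) lies farthest left in 23 of the 36 rows.

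Electrons from the dehydrogenases pass through the flavoprotein subunits Etfa and Etfb to the membrane oxidoreductase Etfdh. Etfa was 203, 194 and 162 TPM in homozygous and 172, 134 and 83.1 TPM in WT muscle, a difference of 0.58 (SE 0.25, adjusted p 0.209 in limma). Etfdh was 89.2, 67.5 and 55.2 TPM against 69.2, 51.5 and 34.0 TPM, a difference of 0.48 (SE 0.27). Both had overlapping groups, with WT replicate 1 inside the homozygous range. Etfb, whose reads may be shared with the same-strand gene Gm45233, was 386, 316 and 266 TPM against 344, 219 and 302 TPM, a difference of 0.17 (SE 0.21). The ratio of Etfb to Etfa was 1.63 to 1.99 in 5 libraries and 3.64 in WT replicate 3, so the summed transcripts of the 2 genes were in different proportion in that library. WT replicate 3 also had low values for long transcripts. The abundance-weighted length is 815 nt for Etfb and 1348 nt for Etfa, and its part in the ratio was not tested.

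Uncoupling proteins and thioesterases included the gene with the lowest difference of the 36, Ucp3. Of these 4 genes, 0 lay above the all-gene median, and their median difference was 0.016, or 0.25 below that of all genes. Ucp3, the uncoupling protein typical of muscle (chromosome 7, 100472990 to 100486432, plus strand), was 129, 37.1 and 38.0 TPM in homozygous and 71.1, 86.2 and 73.4 TPM in WT muscle. The WT libraries were close together, while homozygous replicate 1 was above and homozygous replicates 2 and 3 below all of them. The difference of -0.43 (SE 0.45) was the lowest of the 36 and within the spread between libraries (adjusted p 0.539 in limma). It was -1.06 without replicate 1 of both genotypes, a fit chosen after seeing the data.

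Ucp2, a widely expressed relative, was 4.14, 7.29 and 5.02 TPM against 5.23, 6.49 and 3.01 TPM, with overlapping groups. Acot2, a mitochondrial thioesterase, was 8.35, 3.54 and 3.64 TPM against 6.76, 3.92 and 3.21 TPM; it has a near-identical neighbour, Acot1, which was below the filter, and its level is uncertain for that reason. Acot13, another thioesterase, was 170.0, 141 and 124 TPM against 152, 125 and 179 TPM, the only one of the 36 genes with its highest value in WT replicate 3. The differences of the 3 genes were 0.15 (SE 0.27), 0.097 (SE 0.33) and -0.065 (SE 0.18).

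Malonyl-CoA is made and removed by a pair of enzymes, Acacb and Mlycd. Acacb, acetyl-CoA carboxylase beta (chromosome 5, 114146535 to 114250761, plus strand), which makes the malonyl-CoA that inhibits Cpt1b, was 49.2, 59.2 and 51.6 TPM in homozygous and 45.8, 37.0 and 36.2 TPM in WT muscle. The groups did not overlap, with a difference of 0.42 (SE 0.14, adjusted p 0.171 in limma), or 0.16 above the all-gene median. When a trend with transcript length was removed in each library, a step chosen after seeing the data, the difference was 0.024 and the groups overlapped; the abundance-weighted length of Acacb is 6992 nt, the longest of the 36. Mlycd, malonyl-CoA decarboxylase, which removes malonyl-CoA, was 65.0, 34.1 and 31.9 TPM against 52.0, 37.0 and 43.4 TPM, a difference of -0.076 (SE 0.27). Its sign was not stable, at 0.11 without homozygous replicate 3 and 0.047 without WT replicate 1.

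Ppara had the largest difference of the 36 genes, at a low level. This receptor for fatty acids (chromosome 15, 85734983 to 85802819, plus strand) was 2.16, 3.95 and 4.69 TPM in homozygous and 1.35, 1.93 and 0.363 TPM in WT muscle. All homozygous values lay above all WT values, and WT replicate 3 was far below the rest. With means of 3.60 ± 1.30 and 1.21 ± 0.791 TPM (SD, n = 3 each), it differed by 1.08 (SE 0.33), or 0.82 above the all-gene median, and the adjusted p in limma was 0.168. The difference was 0.77 without WT replicate 3, 0.79 after quantile normalization, where the groups overlapped, and 0.54 with a slow-fibre score as a covariate. With array weights, which down-weight libraries that stand apart, Ppara alone of the 36 passed the threshold (adjusted p 0.0432 in limma, against 7.30% of all genes called). The weights ran from 0.199 for WT replicate 3 to 2.50 for WT replicate 1, so the WT side of that fit leaned on WT replicate 1. The adjusted p of Ppara over all alternatives ran from 0.0432 to 0.779. Ppard, the more abundant of the 2 receptors here, was 10.1, 13.4 and 13.6 TPM against 10.9, 9.83 and 8.83 TPM, a difference of 0.30 (SE 0.16) with WT replicate 1 above homozygous replicate 1.

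Of the lipid droplet genes, the lipase Pnpla2 had groups that did not overlap and the coat proteins had groups that did. Pnpla2 (chromosome 7, 141455198 to 141460743, plus strand) encodes adipose triglyceride lipase, which takes the first fatty acid off stored triglyceride. It was 155, 150.0 and 145.0 TPM in homozygous and 139, 91.8 and 84.6 TPM in WT muscle. The homozygous libraries spanned 1.07 times from lowest to highest, the narrowest range of the 36 in that group, and the WT libraries 1.64 times. The difference was 0.54 (SE 0.19), or 0.28 above the all-gene median, with an adjusted p of 0.174 in limma, and after quantile normalization the groups overlapped. Protein-coding transcripts made up 44.8%, 45.3% and 38.7% of Pnpla2 abundance in homozygous and 42.6%, 39.9% and 33.9% in WT muscle. The most abundant transcript, ENSMUST00000026583.14, is annotated as subject to nonsense-mediated decay and had groups that did not overlap, at 82.3 ± 3.86 and 57.2 ± 18.9 TPM (SD, n = 3 each). The main protein-coding one, ENSMUST00000064151.12, was 44.97, 44.8 and 43.2 TPM in homozygous and 45.6, 33.1 and 27.7 TPM in WT muscle, with WT replicate 1 above all homozygous values. Lipe, hormone-sensitive lipase, which acts next, was 9.98, 8.23 and 9.50 TPM against 11.6, 7.25 and 6.42 TPM, with overlapping groups and a difference of 0.15 (SE 0.21).

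Plin2, a droplet coat protein, was 32.9, 24.1 and 22.6 TPM against 27.6, 27.98 and 20.7 TPM, a difference of 0.052 (SE 0.19). Plin5, the coat protein of oxidative tissues that ties droplets to mitochondria, was 10.9, 5.21 and 3.38 TPM in homozygous and 11.6, 4.22 and 5.70 TPM in WT muscle. Replicate 1 of each genotype had more than the other libraries, and the difference was -0.15 (SE 0.43), or 0.22 in the other direction without WT replicate 1. Adiponectin (Adipoq), which marks adipocytes, was 0.679 to 2.81 TPM in the 6 libraries, and the summed adipocyte markers were highest in homozygous replicate 3, where Plin5 was lowest. The median difference of the 4 droplet genes was 0.10, or 0.16 below that of all genes.

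Dgat1 and Dgat2 each add the last fatty acid in triglyceride synthesis and differed in how much they varied. Dgat1 was 7.98, 6.20 and 7.37 TPM in homozygous and 6.21, 6.66 and 6.59 TPM in WT muscle, the narrowest range of the 36 genes (1.29 times from lowest to highest). Dgat2 was 29.8, 36.7 and 18.9 TPM against 24.9, 12.6 and 7.85 TPM, a range of 4.67 times, exceeded only by Ppara at 12.9 times. The groups overlapped for Dgat2 through WT replicate 1, and its difference was 0.96 (SE 0.40, adjusted p 0.199 in limma), or 0.60 without WT replicate 3 and 0.18 with the slow-fibre score as a covariate.

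**Figure D3:**
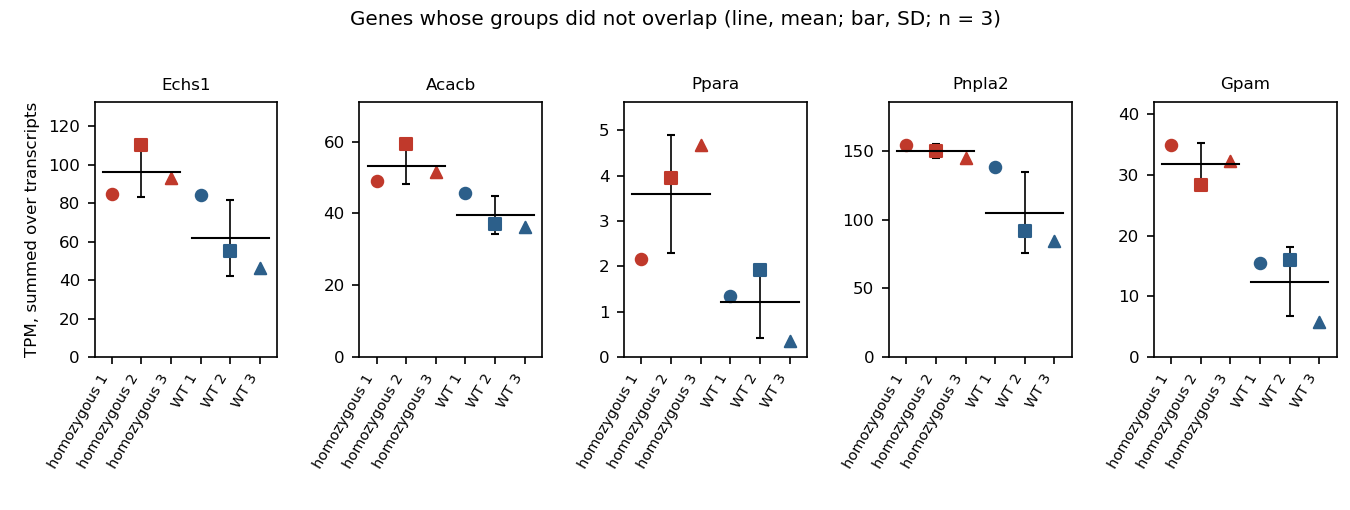
Summed TPM in each library for the 4 genes of the 36 whose groups did not overlap (Echs1, Acacb, Ppara and Pnpla2) and for Gpam, a related gene. Lines are means and bars SD of 3 libraries; in Echs1 homozygous replicate 1 (85.0 TPM) and WT replicate 1 (84.2 TPM) almost touch, while the Gpam groups are far apart.

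Libraries of the same genotype differed widely in these genes. Homozygous replicate 1 had the highest homozygous value for 28 of the 36 genes (77.8%, against 29.3% of all genes), WT replicate 1 had the highest WT value for 29 (80.6%, against 37.5%), and both held for 24 (66.7%, against 10.8%). WT replicate 1 exceeded both homozygous replicates 2 and 3 in 22 of the 36 genes (61.1%, against 14.2%). WT replicate 1 was the highest WT library for all 12 enzymes of the spiral. WT replicate 3 had the lowest value of all 6 libraries for 23 genes (63.9%), close to its share of 55.8% among all genes.

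Summed over the 36 genes, homozygous muscle had 5015, 3716 and 3024 TPM and WT muscle 4574, 2716 and 2485 TPM. These sums were 0.302% to 0.501% of all TPM in the homozygous and 0.249% to 0.457% in the WT libraries. The 12 spiral enzymes summed to 2024, 1682 and 1368 TPM against 1761, 1128 and 964 TPM. The 2 libraries labelled replicate 1 were therefore the highest of their groups, and WT replicate 1 exceeded homozygous replicates 2 and 3. The slow-fibre sum was 1902, 9714 and 2241 TPM in homozygous replicates 1, 2 and 3 and 1738, 1123 and 245 TPM in WT replicates 1, 2 and 3. Among the WT libraries it had the same order as the sum over the 36 genes, and among the homozygous libraries it did not; its part in these values was not tested. The labels name no batch, litter or date that would set the replicates numbered 1 apart.

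**Figure D4:**
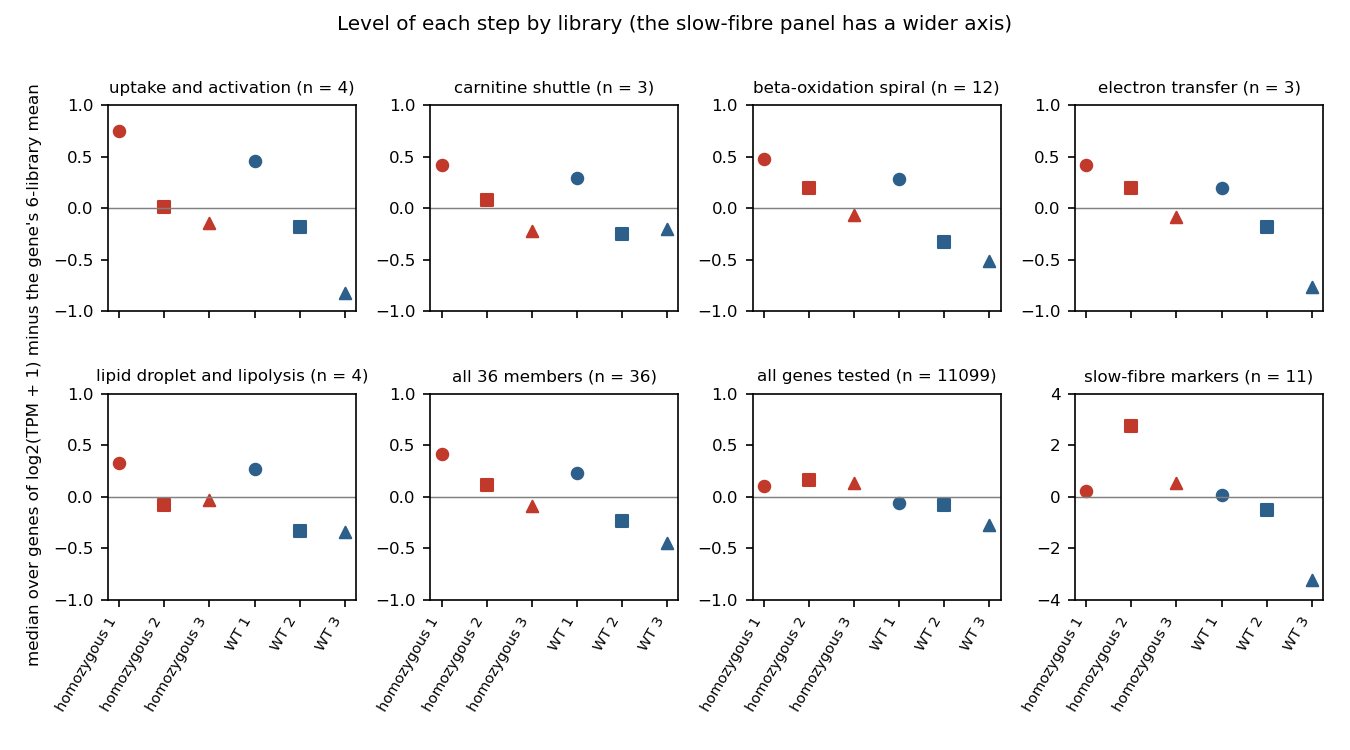
Median over the genes of each step of log2(TPM + 1) minus the gene's mean over the 6 libraries, for each library (red, homozygous; blue, WT), beside all 36 genes, all 11099 genes tested and 11 slow-fibre markers, whose panel has a wider axis. The 2 libraries labelled replicate 1 are highest of their genotype in the 5 step panels, and the slow-fibre markers are highest in homozygous replicate 2, with the same order as the 36 genes among the WT libraries.

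Counts of separated genes depended on which libraries were included. A separation cannot be lost when a library is left out, so among genes still tested these counts can only stay or rise. Without WT replicate 1, the homozygous values lay above the WT values for 18 of the 36 genes, or 50.0% against 45.1% of all genes, including 8 of the 12 spiral enzymes. Without homozygous replicate 3 there were 9, against 41.8% of all genes, and without WT replicate 3 there were 5, against 42.3%. Genes higher at an unadjusted p under 0.05 numbered 15 without WT replicate 1 (23.9% of all genes), 4 without WT replicate 3 (21.3%), 2 without WT replicate 2 (24.9%) and 1, Ppara, without homozygous replicate 2 (9.60%). After quantile normalization the groups were apart for 0 of the 36, against 8.05% of all genes higher in homozygous muscle.

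Other genes of the pathway, 69 in all, came from a list of further transporters, enzymes and regulators. Of these, 63 passed the filter, 0 reached the threshold on adjusted p by limma, and 55 had a higher and 8 a lower value, with a median difference of 0.31. The homozygous values were all above the WT values for 17 of the 63 (27.0%, against 34.7% of all genes) and all below for 0, against 0.73%. The share of higher genes did not exceed its background. The largest difference with separated groups was in Gpam, the mitochondrial enzyme that starts glycerolipid synthesis, at 35.03, 28.4 and 32.2 TPM in homozygous and 15.5, 16.0 and 5.79 TPM in WT muscle. Its difference was 1.40 (SE 0.33, adjusted p 0.168 in limma), the groups stayed apart after quantile normalization at 1.11, and it was 0.97 without WT replicate 3. The next were Acaca, the carboxylase isoform of fatty acid synthesis (0.78), Esrrg, a nuclear receptor of oxidative muscle (0.78), and Acadsb, a dehydrogenase of branched short chains (0.75). After quantile normalization the groups overlapped for Acaca, Esrrg and Acadsb. With the slow-fibre score as a covariate the difference was -0.065 for Esrrg, 0.069 for Acadsb, 0.43 for Acaca and 0.90 for Gpam.

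Cd36, the main fatty acid translocase of muscle, was 92.2, 80.1 and 56.2 TPM in homozygous and 76.4, 55.3 and 20.6 TPM in WT muscle, a difference of 0.73 (SE 0.45). Lpl, lipoprotein lipase, which frees fatty acids from circulating triglyceride, was 184, 247 and 133 TPM against 199, 108 and 51.4 TPM, a difference of 0.81 (SE 0.47). Both had overlapping groups, and the differences were negative with the slow-fibre score as a covariate, at -0.080 and -0.19. The slow-fibre sum was itself higher in every homozygous library, so that fit cannot tell fibre type from genotype. Pdk4, the kinase that spares glucose when fat is burned, was 160.1, 57.9 and 46.9 TPM against 179, 121 and 37.2 TPM, with a difference of -0.30 (SE 0.69). Angptl4, a secreted inhibitor of lipoprotein lipase, did not pass the filter, at 0.0974 to 2.28 TPM. Abhd5, the coactivator of Pnpla2, and G0s2, its inhibitor, were picked out after their values had been seen. Abhd5 was 23.8, 25.3 and 26.2 TPM in homozygous and 17.8, 17.8 and 9.76 TPM in WT muscle, with groups apart also after quantile normalization, while G0s2 was 18.9, 57.8 and 42.9 TPM against 19.8, 15.1 and 18.6 TPM with overlapping groups.

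Single transcripts were compared because a sum can hide a shift between isoforms. Of the 196 transcripts, 18 were at 0 in all libraries and 95, covering all 36 genes, were tested. At an unadjusted p under 0.05, 17 were higher (17.9%, against 14.2% of all transcripts) and 2 were lower, against 1.52%. The groups were apart with homozygous values higher for 14, against 25.6% of all transcripts, and lower for 1, against 2.11%. By limma, 0 of the 95 had an adjusted p under 0.05, against 0.0425% of all transcripts, and the smallest adjusted p was 0.263. No transcript was apart in the direction opposite to its gene.

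The smallest p belonged to Acacb transcript ENSMUST00000102582.7, a protein-coding form of 53 exons, at 10.7, 15.3 and 11.0 TPM in homozygous and 6.52, 6.68 and 3.70 TPM in WT muscle. Its difference was 1.02 (SE 0.26), and the share of Acacb abundance in protein-coding transcripts was 43.3%, 49.5% and 46.6% against 32.0%, 31.9% and 11.0%. The most abundant Acacb transcript, ENSMUST00000143276.1, is annotated as a retained intron and was 26.1 ± 0.298 and 26.6 ± 2.90 TPM (SD, n = 3 each), so the gene's separation lay in its other transcripts. Next were Etfa transcript ENSMUST00000142587.1, at 3.49, 4.58 and 6.24 TPM against 2.19, 2.26 and 1.35 TPM, and Acadm transcript ENSMUST00000200250.4, a retained intron, at 36.05, 33.9 and 27.4 TPM against 18.6, 6.76 and 15.3 TPM. Both are short forms annotated as not protein coding, and their differences were 0.96 (SE 0.26) and 1.29 (SE 0.35).

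The 1 transcript that was apart in the lower direction was picked out after its values had been seen. It is Cpt2 transcript ENSMUST00000106720.8, a protein-coding form of 1015 nt, listed at 0 in homozygous replicate 1 and at 1.86 and 1.44 TPM in the others, against 3.50, 3.32 and 9.81 TPM in WT muscle. It made up 37.1% of Cpt2 abundance in WT replicate 3, and at most 13.2% in the other libraries.

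**Figure D5:**
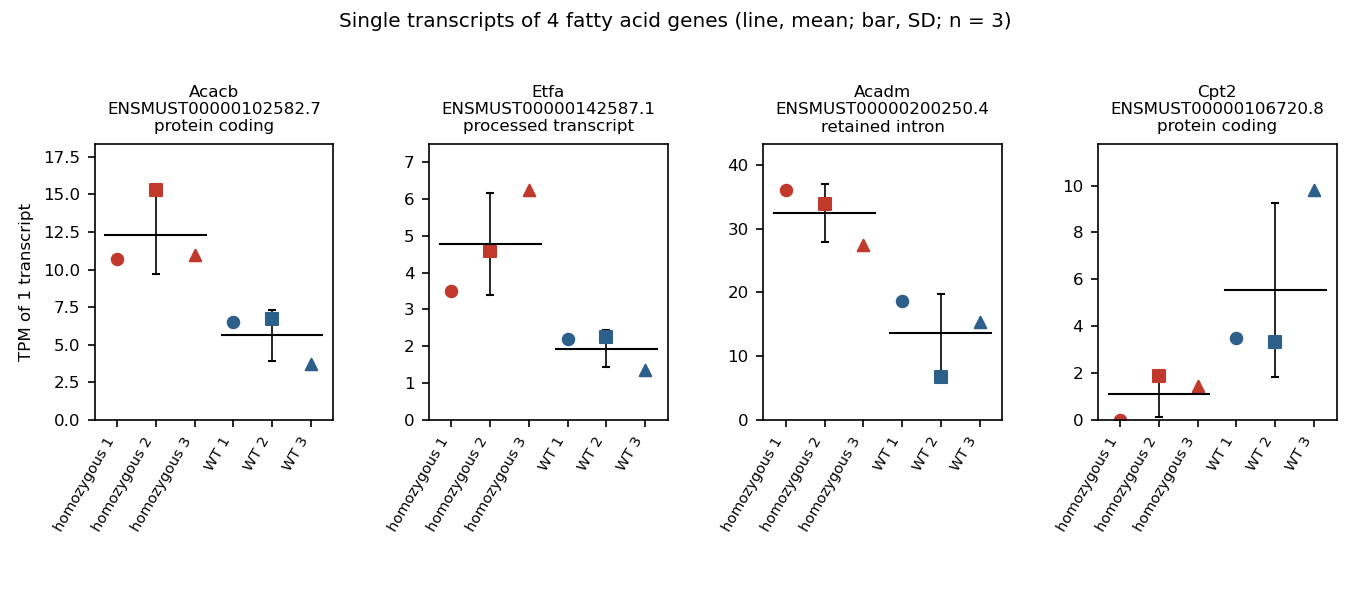
TPM in each library of the 3 transcripts with the smallest p among the 36 genes (Acacb, Etfa and Acadm) and of the 1 transcript that was lower with separated groups (Cpt2). Lines are means and bars SD of 3 libraries; the first 3 transcripts are higher in every homozygous library, and the Cpt2 transcript is at 9.81 TPM in WT replicate 3.

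Promoter sequence was read for members whose levels are described above. RefSeq windows (GRCm38.p6) matched 30 of the 36 genes, in 35 windows, of which the 250 bases before the start were searched on both strands. AGGTCA, the half-site bound by PPAR, estrogen-related and other nuclear receptors, was present in windows of 6 genes (Acadm, Acadvl, Echs1, Plin2, Plin5 and Ucp3), or 6 of 35 windows, against 14.0% of all 32851 windows. TGTTCT, a half-site of the glucocorticoid receptor, was in 2 windows (Hadh and Mlycd), against 16.1%. The longer motifs AGGNCANAGGNCA (the PPAR repeat), GNACANNNTGTNC (the glucocorticoid receptor palindrome) and TCAAGGTCA (estrogen-related receptors, which contains AGGTCA) were in 0 of the 35, against 0.338%, 0.387% and 0.387% of all windows, and these letters not being in the windows says nothing of the factors elsewhere. A match is a description of letters, not a site.

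The AGGTCA windows of 4 genes are shown, those of the 2 oxidation enzymes with an unadjusted p under 0.05 and of the 2 genes with high values in homozygous replicate 1 and lower means in homozygous muscle. Each is written 5′ to 3′ on the strand of its gene, without bases that lie in an annotated exon, and capitals mark AGGTCA. They are chr7:140116477-140116671 (minus strand) for Echs1, chr11:70015429-70015678 (minus strand) for Acadvl, chr7:100472741-100472989 (plus strand) for Ucp3 and chr17:56117597-56117798 (minus strand) for Plin5.
Echs1: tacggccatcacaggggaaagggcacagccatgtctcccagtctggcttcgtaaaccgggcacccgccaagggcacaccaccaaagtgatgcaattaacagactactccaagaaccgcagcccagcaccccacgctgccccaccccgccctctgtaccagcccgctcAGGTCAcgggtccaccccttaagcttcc
Acadvl: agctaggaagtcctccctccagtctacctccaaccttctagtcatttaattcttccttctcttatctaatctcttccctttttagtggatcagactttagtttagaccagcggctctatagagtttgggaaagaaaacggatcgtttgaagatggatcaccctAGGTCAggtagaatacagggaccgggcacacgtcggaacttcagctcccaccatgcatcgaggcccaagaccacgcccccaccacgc
Ucp3: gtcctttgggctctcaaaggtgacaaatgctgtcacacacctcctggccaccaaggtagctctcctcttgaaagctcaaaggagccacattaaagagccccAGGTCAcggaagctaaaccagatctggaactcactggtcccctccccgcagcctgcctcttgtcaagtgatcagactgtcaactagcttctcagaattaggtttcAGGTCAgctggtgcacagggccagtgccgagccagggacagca
Plin5: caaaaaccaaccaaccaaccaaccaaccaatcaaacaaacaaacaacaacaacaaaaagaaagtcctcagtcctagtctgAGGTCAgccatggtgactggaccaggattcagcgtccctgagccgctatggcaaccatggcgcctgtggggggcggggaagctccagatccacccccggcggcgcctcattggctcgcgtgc

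The half-site lies 83 to 78 bases before the start in Echs1, 87 to 82 in Acadvl and 170 to 165 in Plin5, and Ucp3 has a pair, at 149 to 144 and 44 to 39.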

How the data were processed

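The 36 genes, the steps, the further pathway genes and the marker lists were chosen with earlier results of these data known. Poly-A selected, stranded libraries were made from quadriceps RNA, per the labels' protocols. The authors deposited TPM values per Ensembl transcript, with 1 column for each of the 6 libraries, per the file headers. FastQC, Trimmomatic, HISAT2, kallisto and mm10 are named, per the submitters' processing notes; the sources used here give neither their roles nor their versions. Each library summed to 1000000 TPM, so depth is not contained in the values, and a rise of a few abundant genes lowers the values of all others.

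Groups were taken from the genotype labels. TPM was summed per gene symbol, transformed to log2(TPM + 1), and filtered for genes (or transcripts) that reach 1 TPM in at least 3 libraries. The test was limma 3.58.1 (R 4.3.3; trend, robust, two-sided) with Benjamini-Hochberg adjustment over all of them and a threshold of 0.05. The method was run on simulated data with independent normal values for each gene and the same spread in every library. These lacked the shift shared by most genes, so that run does not show how the method behaves with the present libraries. Lists are described by counts and medians, without a test. Positions, exons and biotypes come from GENCODE M21 (GRCm38), and promoters from RefSeq (GRCm38.p6).

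All 36 genes were named; of the other pathway genes, the 4 largest rises and 4 largest falls with groups apart (no falls met this), with Cd36, Lpl, Pdk4 and Angptl4; of transcripts, the 3 with the smallest p. Alternatives were quantile normalization, median centring, mitochondrial transcripts left out, no filter, a pseudocount of 0.1, each library left out, array weights, a block on the replicate number and a slow-fibre covariate. Removal of a length trend (loess, span 0.5) and leaving out both libraries numbered 1 were added after seeing the data.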

Additional observations from a re-analysis of the deposited data

How the results depend on the processing

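The directions below are of differences between homozygous and WT libraries on the log2 scale. Of the 36 genes, 16 (among them Cpt2, Echs1, Eci2, Acadvl, Ppara, Pnpla2, Acacb, Dgat2 and Ucp3) kept their direction in all 16 alternatives. Some of the 16 genes kept it narrowly, with differences as small as 0.0066 for Acadm, -0.017 for Ucp3 and 0.024 for Acacb. The fits with no filter and with the replicate block give each gene the same difference as the fit described, so they could not reverse a sign. The other genes changed sign in at least 1 of the alternatives. The 3 libraries per group limit what the test can call, and the causes of the changes were not tested.

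The lists that follow hold only differences whose sign was reversed against the fit described, and genes that kept their sign are left out. With array weights, 810 genes and 1 of the 36 (Ppara) were called. The reversed differences were Fabp3 -0.62, Slc27a1 -0.25, Cpt1b -0.046, Slc25a20 -0.096, Hadhb -0.16, Acaa2 -0.28, Eci1 -0.052, Decr1 -0.074, Acot2 -0.36, Lipe -0.15 and Plin2 -0.12. With the length trend removed they were Fabp3 -0.032, Slc27a4 -0.12, Cpt1b -0.12, Acaa2 -0.11, Decr1 -0.051, Ucp2 -0.090, Acot2 -0.17, Ppard -0.022, Lipe -0.12, Plin2 -0.11 and Dgat1 -0.095. After median centring they were Fabp3 -0.18, Slc27a4 -0.081, Cpt1b -0.12, Slc25a20 -0.030, Acads -0.027, Hadhb -0.033, Acaa2 -0.19, Decr1 -0.040, Etfb -0.13, Ucp2 -0.15, Acot2 -0.20, Ppard -0.0040, Lipe -0.15, Plin2 -0.25 and Dgat1 -0.18. After quantile normalization they were Slc27a4 -0.079, Acaa2 -0.090, Etfb -0.0084, Ucp2 -0.16, Acot2 -0.21, Lipe -0.14, Plin2 -0.24 and Dgat1 -0.18. With the slow-fibre covariate they were Fabp3 -0.26, Slc27a1 -0.071, Slc25a20 -0.00092, Hadhb -0.075, Decr1 -0.026, Ucp2 -0.42, Acot13 0.12, Mlycd 0.086, Lipe -0.018, Plin2 -0.044, Cd36 -0.080, Esrrg -0.065 and Lpl -0.19.

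Leaving out 1 library at a time, genes called ran from 0 to 2, and the differences from -0.28 to 0.63 for Fabp3, -0.24 to 0.41 for Acaa2, -0.016 to 0.31 for Etfb, -0.10 to 0.36 for Ucp2, -0.24 to 0.35 for Acot2, -0.20 to 0.060 for Acot13, -0.39 to 0.11 for Mlycd, -0.11 to 0.15 for Plin2, -0.55 to 0.22 for Plin5 and -0.95 to 0.17 for Pdk4. The members higher at an unadjusted p under 0.05 ran from 1 to 15, those lower from 0 to 1, and those apart from 4 to 18. Transcripts called ran from 0 to 38 against 9 in the fit described, and members' transcripts higher at an unadjusted p from 6 to 28 against 17.

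The 7 members higher at an unadjusted p became 1 with quantile normalization (against 4.54% of all genes), the length trend removed (4.31%) or median centring. They became 4 without mitochondrial transcripts, 3 with array weights and 0 with the slow-fibre covariate. Without both libraries numbered 1 there were 11, against 17.8% of all genes, and 1 was lower, against 130 of 10629 genes. Then 18 members (50.0%) were apart with homozygous values higher, against 55.0% of all genes. With homozygous values lower, 3 were apart, against 552 of 10629 genes. The shares of all genes in the other fits are not given here. Lower members numbered 1 with quantile normalization (against 4.34% of all genes), centring, array weights or the length trend removed. Members apart numbered 0 with quantile normalization (against 8.05% of all genes higher), the length trend removed (7.37%) or centring. Transcripts called were 3 with quantile normalization, 5 with centring, 4 with a pseudocount of 0.1 and 0 with no filter, and members' transcripts higher at an unadjusted p were 8 with quantile normalization or centring. The median of the other pathway genes relative to all genes was 0.19 with no filter.

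Deviations of same-numbered libraries from their group means correlated at -0.071, 0.061 and -0.013 across 11099 genes, which are not independent replicates. Pairs with unlike numbers ran from -0.139 to 0.131. With 3 libraries per group, these values cannot decide whether same-numbered libraries share more than a number. With the replicate block in limma, 14 members were higher at an unadjusted p under 0.05. The share of all genes in that fit is not given here. There, 0 members had an adjusted p under 0.05, and 0 transcripts were called.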
